A study of Mus musculus with 36 samples.

Results

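The genes described here are 10 genes whose products mark eosinophils, mast cells and basophils, taken by symbol from the 38887 genes of a count table: *Epx*, *Prg2*, *Cpa3*, *Mcpt8*, *Prss34*, *Gzmb*, *Hdc*, *Ms4a2*, *Fcer1a* and *Il5ra*. They were chosen by name with results of these data known, among them the high levels in single libraries, so the account of which libraries peak is a description with no test. RNA was sequenced from 5000 cells per sample, sorted from bone marrow of C57BL/6 mice in an angiotensin II (Ang II) model of abdominal aortic aneurysm. Within lineage-negative cells with Sca-1 and c-kit, long-term hematopoietic stem cells (LT-HSC, with CD150 and without CD48) gave 17 libraries and the more committed HPC-1 (without CD150 and with CD48, called ST-HSC in the sample labels) gave 19. All mice lacked *Apoe*, ate a Western diet and carried a pump with Ang II or PBS for the last 2 weeks. The 3 genotypes were *Apoe*-/- with *Il27ra* intact (labelled WT), *Apoe*-/-*Il27ra*+/- (heterozygous) and *Apoe*-/-*Il27ra*-/- (knockout). In that order, LT-HSC libraries numbered 1, 3 and 3 under PBS and 2, 4 and 4 under Ang II, and HPC-1 libraries numbered 2, 3 and 3 under PBS and 3, 4 and 4 under Ang II. Ages and sexes were not given in the labels, and p-values measure the spread between these samples.

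Eosinophils, mast cells and basophils are granule-bearing myeloid cells that arise in the bone marrow. Eosinophils store cytotoxic proteins such as eosinophil peroxidase and major basic protein, whereas mast cells and basophils store proteases and histamine and carry the high-affinity IgE receptor. Progenitors begin to transcribe some of these granule genes before mature cells appear. Mature forms of these cells are depleted by lineage markers in sorts such as those used here.

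Library totals ran from 1980283 to 6861078 counts with a median of 3139364. Levels are given as CPM, counts relative to the library total as scaled by TMM. A gene with 0 counts could hold up to 0.437 CPM in the deepest library and up to 1.51 CPM in the shallowest, taking 3 counts over the library total before that scaling as the limit and covering counting error only. Counts of 4 Y-linked genes were above 100 in 24 libraries and at most 1 in the other 12, and the 12 without them held at least 2560838 counts each. All 8 *Il27ra*-intact libraries were among the 24.

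*Il27ra* itself was examined first. In Ang II LT-HSC its level was 42.8 and 51.7 CPM in the intact libraries, 30.1, 25.4, 27.0 and 32.8 CPM in the heterozygous libraries, and 16.3, 11.6, 16.1 and 19.3 CPM in the knockout libraries. The 3 genotypes did not overlap there. In PBS LT-HSC it was 17.1 CPM in the 1 intact library, 42.7, 23.8 and 25.5 CPM in the heterozygous ones and 9.41, 6.93 and 16.3 CPM in the knockouts, so that knockout and heterozygous libraries did not overlap and the intact library lay close to the knockouts. In HPC-1 the levels ran from 6.06 to 11.9 CPM in intact, from 5.46 to 16.5 CPM in heterozygous and from 4.63 to 11.1 CPM in knockout libraries, which overlapped. The gene was thus at 0 in no knockout library, and a count per gene does not show whether the reads lay in the deleted part. *Apoe*, deleted in all mice, had counts in 35 of the 36 libraries and for the same reason checks no label.

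Marker lists showed 3 LT-HSC libraries standing apart. The knockout PBS replicate 2 went against its label: 8 LT-HSC markers summed to 260 CPM in it against 931 to 1762 CPM in the 14 LT-HSC libraries outside the 3, and 6 HPC-1 markers summed to 1990 CPM against 59.0 to 328 CPM. All 12 of 12 neutrophil genes had counts in this library and summed to 3993 CPM, of which *Mpo*, a primary granule gene that progenitors transcribe, made 3518 CPM. It is called the library labelled LT-HSC knockout PBS replicate 2. The knockout Ang II replicate 2 had LT-HSC markers at 839 CPM and HPC-1 markers at 442 CPM, below and above the same ranges. It held 9315 CPM over 12 of 12 neutrophil genes with *S100a9* the most abundant at 2178 CPM, 2290 CPM over 7 of 7 monocyte genes led by *Lyz2* at 1652 CPM, and 2915 CPM over 10 of 10 erythroid genes led by *Hba-a2* at 993 CPM. The knockout PBS replicate 3 held 1529 CPM over 12 of 12 neutrophil genes led by *Ngp* at 388 CPM and 3111 CPM over 10 of 10 erythroid genes, with LT-HSC markers at 1371 CPM. Its monocyte genes summed to 398 CPM, and those of the library labelled LT-HSC knockout PBS replicate 2 to 401 CPM. In the 14 LT-HSC libraries outside the 3 they summed to 94.6 to 142.7 CPM. In the other 14 LT-HSC libraries the neutrophil list summed to between 29.6 and 131 CPM. All 3 libraries are knockouts. The edgeR comparisons between the gates, within LT-HSC and for interactions were also run without them, as was DESeq2 for all but interactions.

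In HPC-1 the neutrophil list ran from 2430 to 7287 CPM, nearly all of it primary granule RNA, with *Mpo* between 2203 and 6059 CPM. The 8 late granule and S100 genes of that list summed to 0.308 to 253 CPM in HPC-1, against 7885 CPM in the LT-HSC knockout Ang II replicate 2, 1329 CPM in the knockout PBS replicate 3 and 21.4 CPM in the library labelled LT-HSC knockout PBS replicate 2. Genes of intestinal epithelium summed to 211, 338 and 448 CPM in the intact LT-HSC libraries and 5.31 to 15.7 CPM in the other LT-HSC libraries. In intact HPC-1 libraries they summed to 49.4 to 295 CPM and in the others to 2.43 to 39.7 CPM. *Dmbt1* was the most abundant in most intact libraries, and *Lgals4* in each of the other LT-HSC libraries. Between the gates, edgeR called *Epcam* and *Krt8* of this list higher in LT-HSC, at log2 differences of 2.24 (SE 0.51) and 1.89 (SE 0.49).

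Summed over the 10 genes, the level in LT-HSC had its lowest value at 0.475, its median at 6.74 and its highest at 560 CPM, and in HPC-1 at 30.6, 77.3 and 178 CPM. Without the 3 libraries the LT-HSC maximum was 29.0 CPM, below every HPC-1 library. The highest library of each LT-HSC group was replicate 1 of the intact PBS and intact Ang II groups, replicate 3 of the heterozygous and knockout PBS groups, replicate 4 of the heterozygous Ang II group and replicate 2 of the knockout Ang II group. In HPC-1 it was replicate 2, 1 and 2 of the intact, heterozygous and knockout PBS groups and replicate 1, 3 and 2 of the same genotypes under Ang II. Per kilobase of exon, the order of mean levels in HPC-1 was led by *Cpa3* at 28.2 CPM per kb, followed by *Mcpt8* at 6.50, *Hdc* at 2.92, *Prg2* at 1.86, *Ms4a2* at 1.38, *Gzmb* at 1.12, *Epx* at 0.954, *Fcer1a* at 0.938, *Prss34* at 0.617 and *Il5ra* at 0.0552 CPM per kb. The places of *Epx*, *Prg2*, *Gzmb* and *Ms4a2* rest on 1 library each. Without the intact Ang II replicate 3 (62 of 132 HPC-1 counts) *Epx* stood at 0.462 CPM per kb. Without the knockout Ang II replicate 2 (36 of 89 counts) *Prg2* stood at 1.14 CPM per kb. *Gzmb* stood at 0.869 CPM per kb without the intact Ang II replicate 1 (27 of 113 counts). *Ms4a2* stood at 1.11 CPM per kb without the intact Ang II replicate 3 (40 of 249 counts). In LT-HSC *Prg2* came first at 26.8 and *Epx* next at 4.47 CPM per kb. Without the 3 libraries these values were 2.70 and 0.446 CPM per kb, and *Cpa3* stood at 1.2 CPM per kb. Of the 200 *Prg2* counts left, 150 lay in the heterozygous Ang II replicate 4, so no order is read from these means.

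**Figure D1:**
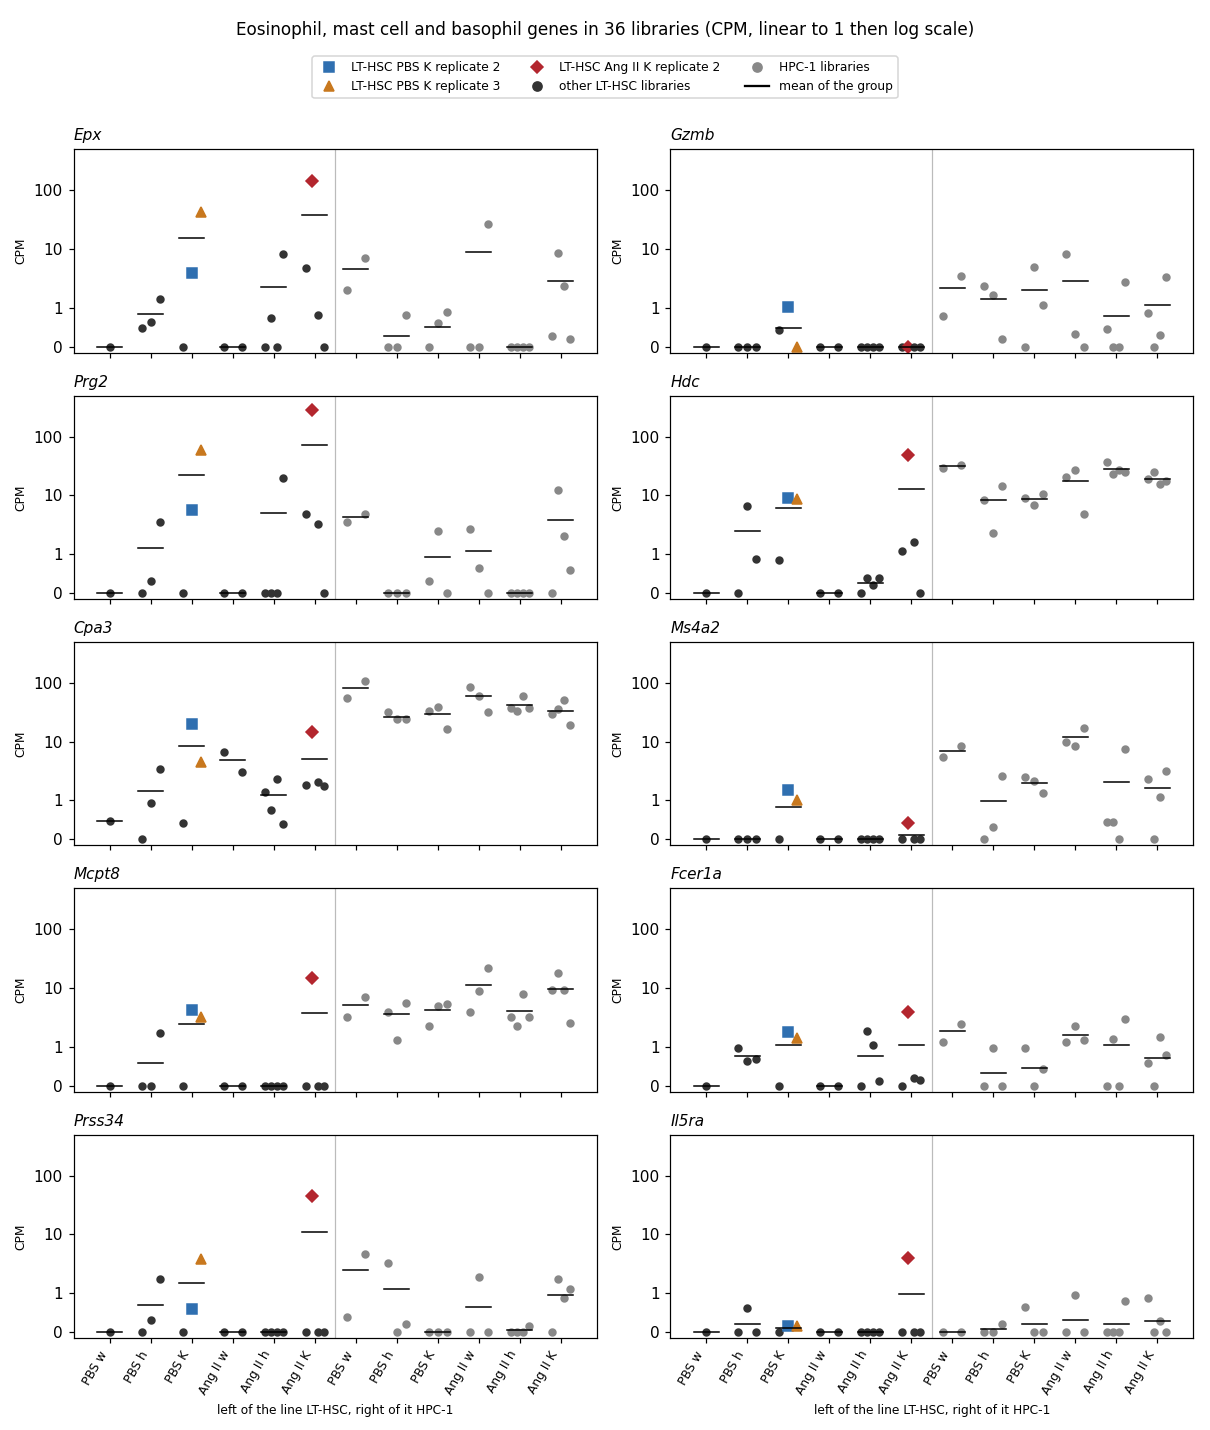
CPM of each of the 10 genes in the 36 libraries (points; linear to 1, then log scale) by agent and genotype (w intact, h heterozygous, K knockout), LT-HSC left and HPC-1 right of the line, with lines at group means. The coloured symbols are the 3 LT-HSC libraries that stand apart; *Prg2* reached 285 CPM in the knockout Ang II replicate 2, whereas *Cpa3* was at 16.2 CPM or more in each HPC-1 library.

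The purpose of comparing the gates is to ask how far these granule genes are transcribed in stem cells and in the later progenitors. With edgeR's quasi-likelihood test on 18013 genes, and Benjamini-Hochberg adjustment at 0.05, 5 of the 10 genes were higher in HPC-1 (*Cpa3*, *Mcpt8*, *Gzmb*, *Hdc* and *Ms4a2*) and 0 were higher in LT-HSC, averaged over the 5 conditions with more than 1 library in each gate. Of all genes tested, 18.4% were higher in HPC-1 and 17.9% were higher in LT-HSC. All 10 passed the filter on low counts. Unadjusted p-values under 0.05 were found for 5 of the 10 and for 7786 of all genes, and DESeq2 called 6: the same 5 plus *Prg2*, which it placed higher in LT-HSC only with the 3 libraries included. Of all 30682 genes DESeq2 called 2878 higher in HPC-1 and 3991 higher in LT-HSC. Without the 3 libraries, when 1 LT-HSC library is left in the knockout PBS group, 8 of the 10 passed the filter (*Fcer1a* and *Il5ra* did not) and the same 5 were called by edgeR and by DESeq2, beside 17.5% of all genes higher in HPC-1 in edgeR. The ratio of mean levels, LT-HSC over HPC-1, had a median log2 of −1.16 over the 10 genes. Without the 3 libraries it was −3.41, with *Ms4a2* set to the limit of 3 counts over the 14 remaining libraries. This value lay between *Hdc* at −4.44 and *Prss34* at −2.37. *Prss34* stood at −4.96 without the heterozygous PBS replicate 3 of LT-HSC, so 1 library moves this median. In the edgeR fit with all libraries, the median log2 difference was −2.17 over the 10 genes and 0.03 over all genes tested. The former includes *Epx*, *Prg2* and *Prss34*, for which no fitted fold is given below. In bulk RNA, fewer cells of a type and less RNA per cell cannot be told apart.

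*Epx* (chromosome 11, 87864000 to 87875536, minus strand, GRCm38) encodes eosinophil peroxidase, which makes oxidants from halides. Its level over the 17 LT-HSC libraries had its lowest value at 0, its median at 0.627 and its highest at 144 CPM, and over the 19 HPC-1 libraries at 0, 0.196 and 26.9 CPM. The LT-HSC knockout Ang II replicate 2 held the 144 CPM (334 counts), the knockout PBS replicate 3 held 43.1 CPM and the library labelled LT-HSC knockout PBS replicate 2 held 3.83 CPM. Among the other 14 LT-HSC libraries the highest was the heterozygous Ang II replicate 4 at 8.22 CPM (62 counts). The 3 intact LT-HSC libraries were at 0 counts, and most libraries of both gates lay at or near the counting limit, so that the gates overlapped. The 3 libraries that stand apart held 87.8% of all *Epx* counts in LT-HSC. In HPC-1 the highest library was the intact Ang II replicate 3 at 26.9 CPM (62 counts), whose 2 companions were at 0. In the same library late neutrophil genes summed to 115 CPM against 7.18 and 35.8 CPM in the companions, erythroid genes to 317 CPM against 169 and 146 CPM, and intestinal genes to 295 CPM, the highest of HPC-1. Their part in the result was not tested.

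*Prg2* (chromosome 2, 84980461 to 84983632, plus strand) encodes major basic protein, the core of the eosinophil granule. In the knockout Ang II LT-HSC libraries its level was 4.80, 285, 3.27 and 0 CPM, and in the knockout PBS ones 0, 5.60 and 60.3 CPM. Heterozygous Ang II LT-HSC libraries were at 0, 0, 0 and 19.9 CPM, and heterozygous PBS ones at 0, 0.314 and 3.45 CPM. Each of these groups held at least 1 library at 0, and heterozygous and knockout libraries overlapped. The 3 intact LT-HSC libraries were at 0. The 3 libraries that stand apart held 84.9% of the LT-HSC counts. In HPC-1 the level had its lowest value and its median at 0 and its highest at 12.5 CPM, in the knockout Ang II replicate 2. That library also had *Epx* at 8.69 CPM, whereas the HPC-1 intact Ang II replicate 3, highest for *Epx*, was at 0 for *Prg2*.

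All members but *Cpa3* had 0 counts in every library of at least 1 of the groups compared, so their fitted folds between the gates depend on the prior count. For *Epx*, *Prg2* and *Prss34* such groups lay in both gates and the standard errors in edgeR were far larger than the folds, so no fitted fold is given for these 3 genes; the adjusted p of its quasi-likelihood fit (Benjamini-Hochberg) was 1 for each. DESeq2 no longer called *Prg2* without the 3 libraries (Wald test, Benjamini-Hochberg adjusted p = 0.197). The ratio of mean levels on the log2 scale, LT-HSC over HPC-1, was 3.85 for *Prg2* with all 17 LT-HSC libraries and 0.54 without the 3, and −0.78 when the heterozygous Ang II replicate 4 was also left out. That of *Epx* was 2.23 and −1.10, and −0.05 when the HPC-1 intact Ang II replicate 3 was also left out, so single libraries set both values. That of *Prss34* was 1.99 and −2.37, and −4.96 when the heterozygous PBS replicate 3, with 10 of the 11 counts left, was also left out.

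**Figure D2:**
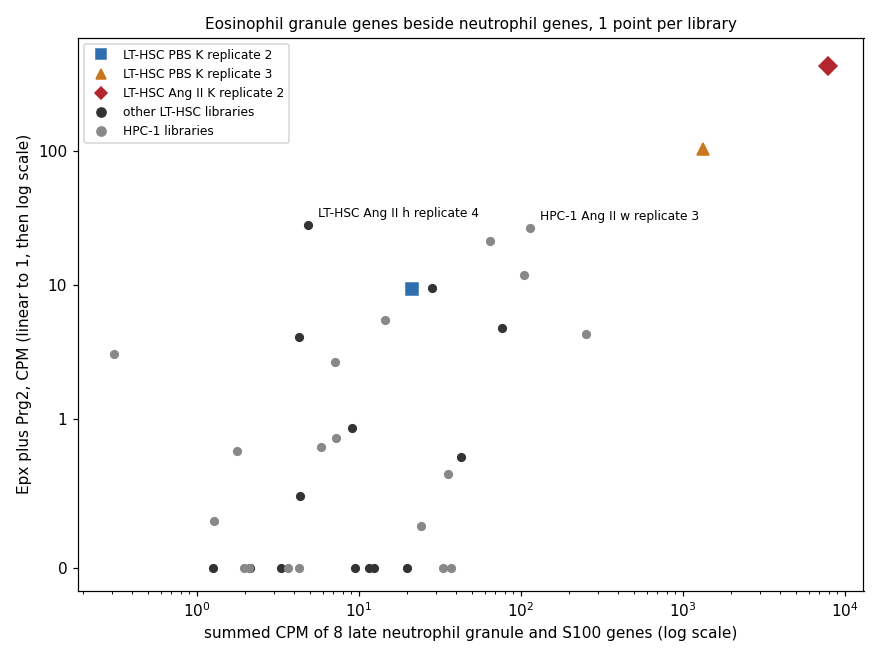
*Epx* plus *Prg2* (CPM, linear to 1 then log scale) against the summed CPM of 8 late neutrophil granule and S100 genes (log scale), 1 point per library. The LT-HSC knockout Ang II replicate 2 (429 against 7885 CPM) and knockout PBS replicate 3 (103 against 1329 CPM) are high on both axes, whereas the LT-HSC heterozygous Ang II replicate 4 has 28.1 CPM of the eosinophil pair at 4.91 CPM of the neutrophil genes.

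Late neutrophil RNA was high in the same LT-HSC libraries as *Epx* and *Prg2* in the case of the knockout Ang II replicate 2 and the knockout PBS replicate 3, and its part in the result was not tested. The heterozygous Ang II replicate 4 differed: its 12 neutrophil genes summed to 45.4 CPM, led by *Prtn3* at 39.7 CPM, with *Mmp8* and *Ctsg* at 0, and its LT-HSC markers summed to 1221 CPM. Its erythroid genes summed to 186 CPM and its monocyte genes to 112 CPM, both within the range of the other LT-HSC libraries outside the 3. Of its 29.0 CPM over the 10 genes, *Epx* and *Prg2* made 28.1 CPM. From the list of 50 other granulocyte genes given below, *Ear2*, *Ear6*, *Ear1* and *Prg3* had 31, 27, 20 and 15 counts in it. Each had at most 4 in any other library of its group. *Ear10* had 0 counts and *Cebpe* 1 in this library, the deepest of the 36. These genes were picked after their values were seen.

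*Cpa3* (chromosome 3, 20215620 to 20242181, minus strand) encodes carboxypeptidase A3, a protease of mast cell and basophil granules that is also transcribed in their progenitors. Its level in LT-HSC had its lowest value at 0, its median at 1.85 and its highest at 20.1 CPM, and in HPC-1 at 16.2, 35.5 and 107 CPM. It was the member seen most evenly: each of the 19 HPC-1 libraries had at least 72 counts, and 17 of the 19 lay above the highest LT-HSC library, which was the library labelled LT-HSC knockout PBS replicate 2. Without the 3 libraries, 19 of 19 HPC-1 libraries lay above an LT-HSC maximum of 6.74 CPM. The fitted log2 difference, LT-HSC minus HPC-1, was −3.44 (SE 0.39) at a Benjamini-Hochberg adjusted p of 1.18e-07 in the edgeR quasi-likelihood fit, and −4.50 (SE 0.35) without the 3.

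*Mcpt8* (chromosome 14, 56082166 to 56085273, minus strand) encodes mast cell protease 8, a basophil serine protease in the mouse. Its level in LT-HSC was 0 at the lowest and the median and 15.1 CPM at the highest, and in HPC-1 it ran from 1.30 through a median of 4.92 to 21.7 CPM. Counts were found in 4 of 17 LT-HSC libraries, the 3 that stand apart and the heterozygous PBS replicate 3 at 1.72 CPM, and in 19 of 19 HPC-1 libraries. Of the 14 LT-HSC libraries outside the 3, this replicate was also the highest for the neutrophil list at 131 CPM, its late genes at 76.6 CPM and the erythroid list at 853 CPM, and their part in the result was not tested. The difference on the log2 scale was −3.94 (SE 0.86; adjusted p = 5.42e-04, edgeR quasi-likelihood F, Benjamini-Hochberg) and −6.47 without the 3, both fits including groups with no counts and so depending on the prior count.

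*Prss34* (chromosome 17, 25298394 to 25300165, plus strand) encodes another basophil protease. It reached 44.4 CPM in the LT-HSC knockout Ang II replicate 2 and 3.86 CPM in the knockout PBS replicate 3, against a maximum of 1.72 CPM in the other 14 LT-HSC libraries, again in the heterozygous PBS replicate 3, and 4.55 CPM in HPC-1. Counts were present in 5 of 17 LT-HSC and 9 of 19 HPC-1 libraries, which overlapped, and the 3 libraries held 92.4% of the LT-HSC counts. *Gzmb* (chromosome 14, 56258838 to 56262260, minus strand), the protease of cytotoxic lymphocytes that is also expressed in basophils and mast cells, behaved differently and was at 0 in the LT-HSC knockout Ang II replicate 2. It had 8 counts in all of LT-HSC, 7 of them in the library labelled LT-HSC knockout PBS replicate 2, and 113 counts in HPC-1, with levels from 0 through a median of 0.786 to 8.08 CPM. The log2 difference was −4.71 (SE 1.00; adjusted p = 3.18e-04, edgeR quasi-likelihood F, Benjamini-Hochberg) and −4.68 without the 3, with the same dependence on the prior count. It ranged from −4.97 to −3.95 over 33 refits that left out 1 library. Genes of T and NK cells, which share *Gzmb*, summed to 15.2 to 45.2 CPM in HPC-1 and 3.48 to 30.6 CPM in LT-HSC, and their part in the result was not tested. The list was not uniform: *Nkg7* made most of it in 18 of 19 HPC-1 libraries, *Nkg7* and *Cd4* were called higher in HPC-1 and *Klrb1c* higher in LT-HSC, *Cd8a* was not called, and the other 6 of the 10 genes failed the filter.

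*Hdc* (chromosome 2, 126593667 to 126619299, minus strand) encodes histidine decarboxylase, the enzyme that makes histamine. Its level in LT-HSC had its lowest value at 0, its median at 0.398 and its highest at 49.5 CPM, and in HPC-1 at 2.28, 19.3 and 36.4 CPM. Every HPC-1 library had at least 7 counts. The LT-HSC knockout Ang II replicate 2 exceeded all HPC-1 libraries, and 84.2% of the LT-HSC counts lay in the 3 libraries that stand apart. Outside them the highest LT-HSC library was the heterozygous PBS replicate 2 at 6.59 CPM, and 17 of 19 HPC-1 libraries lay above it. The log2 difference was −3.66 (SE 0.77; adjusted p = 4.65e-04, edgeR quasi-likelihood F, Benjamini-Hochberg) and −4.95 (SE 0.59) without the 3.

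Of the receptor genes, *Ms4a2* (chromosome 19, 11615523 to 11623719, minus strand) encodes the beta chain of the IgE receptor. It had 0 counts in all 14 LT-HSC libraries outside the 3 and 1.47, 1.00 and 0.431 CPM in those, against 0, 2.30 and 17.3 CPM as the lowest, median and highest of HPC-1. HPC-1 libraries with counts numbered 16 of 19, and the mean level over all 19 was at least 62.3-fold higher than the limit of 3 counts over the 14 LT-HSC libraries together. The fitted log2 difference with all libraries was −4.94 (SE 0.82; adjusted p = 9.22e-06, edgeR quasi-likelihood F, Benjamini-Hochberg) and −6.14 without the 3. *Fcer1a* (chromosome 1, 173221284 to 173227214, minus strand), the alpha chain that binds IgE, was near the counting limit in both gates. It had counts in 11 of 17 LT-HSC libraries with a maximum of 3.88 CPM and in 13 of 19 HPC-1 libraries with a maximum of 2.90 CPM. The gates overlapped, and its log2 difference was −0.65 (SE 0.71; adjusted p = 0.569, edgeR quasi-likelihood F, Benjamini-Hochberg). *Il5ra* (chromosome 6, 106710357 to 106749037, minus strand), the receptor chain through which eosinophil progenitors sense IL-5, had 28 counts in all 36 libraries. The LT-HSC knockout Ang II replicate 2 held 9 of the 13 LT-HSC counts, and no HPC-1 library exceeded 5. Its mean level was 0.282 CPM in LT-HSC and 0.197 CPM in HPC-1, whereas the fit averaged over conditions placed it lower in LT-HSC, so no direction is read (adjusted p = 0.376, edgeR quasi-likelihood F, Benjamini-Hochberg).

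Within each gate, 6 comparisons in LT-HSC and 9 in HPC-1 asked whether genotype or Ang II moved these genes, and edgeR's quasi-likelihood test called 0 of the 10 in each of the 15, as did DESeq2. Of all genes DESeq2 called 755 and 420 of 29655 for knockout and for heterozygous against intact LT-HSC under Ang II and at most 2 in the other 4 LT-HSC comparisons, and in HPC-1 20 of 27858 for knockout against intact under PBS and at most 3 in the other 8. In LT-HSC 6 of the 10 passed the filter on low counts (*Epx*, *Prg2*, *Cpa3*, *Mcpt8*, *Prss34* and *Hdc*). Under Ang II, knockout against intact LT-HSC gave 0 of 6 called and 1 of 6 at an unadjusted p under 0.05, beside 1.69% of 16365 genes called and 2896 genes at that unadjusted p. Heterozygous against intact gave 0 of 6 called and 0 of 6 at an unadjusted p under 0.05, beside 0.831% of genes called and 2563 at that unadjusted p. For knockout against heterozygous under Ang II the numbers were 0 and 3 of 6, and for knockout against heterozygous under PBS and for Ang II against PBS in heterozygous and in knockout mice they were 0 and 0 of 6, each beside 0% of genes called and, in this order, 426, 653, 806 and 150 genes at that unadjusted p. Without the 3 libraries the knockout PBS group holds 1 library, so the 2 comparisons that use it take their spread from other groups only and no reading is made of them. In the other 4, 4 of the 10 passed the filter and 0 were called, in the same order beside 622, 292, 0 and 0 of 15881 genes. The 3 with an unadjusted p under 0.05 in knockout against heterozygous LT-HSC under Ang II were *Mcpt8*, *Prss34* and *Hdc*, and in each the knockout Ang II replicate 2 was the highest library. *Hdc* in these groups was 1.11, 49.5, 1.63 and 0 CPM in knockout and 0, 0.374, 0.209 and 0.398 CPM in heterozygous libraries, which overlapped. Without the 3 libraries its log2 difference, knockout minus heterozygous, moved from 5.41 (SE 1.91) to 1.64 (SE 1.68), and *Mcpt8* and *Prss34* no longer passed the filter. With no filter beyond a total of 1 count, edgeR called 4 members for knockout against intact, 2 for heterozygous against intact and 5 for knockout against heterozygous under Ang II, *Epx* and *Prg2* among them each time, beside 833, 496 and 249 of all 29655 genes. Single libraries carried these counts: the knockout Ang II replicate 2 had 334 counts of *Epx* and 661 of *Prg2*, and the heterozygous Ang II replicate 4 had 62 and 150, against at most 16 in any other library of the 3 groups. With neither the filter nor the 3 libraries, edgeR called 0 members in the 4 comparisons that do not use the knockout PBS group, beside 988, 629, 29 and 2 of 29143 genes. DESeq2 without the 3 called 1 member, *Prg2*, for knockout and for heterozygous against intact under Ang II, where the intact group had 0 counts, beside 1009 and 617 of these genes.

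In HPC-1 7 of the 10 passed the filter (*Epx*, *Prg2*, *Cpa3*, *Mcpt8*, *Gzmb*, *Hdc* and *Ms4a2*). Knockout against intact under PBS gave 0 of 7 called and 2 of 7 at an unadjusted p under 0.05, beside 0.0152% of 13199 genes called and 865 at that unadjusted p. In the other 8 comparisons 0% of genes and 0 of 7 members were called by edgeR. The members at an unadjusted p under 0.05 numbered 2 for knockout against intact, 4 for heterozygous against intact and 2 for knockout against heterozygous under Ang II, beside 661, 975 and 375 of all genes. Under PBS they numbered 4 for heterozygous against intact and 0 for knockout against heterozygous, beside 631 and 151 of all genes. For Ang II against PBS they numbered 0 in intact, 1 in heterozygous and 1 in knockout mice, beside 420, 519 and 244 of all genes.

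*Cpa3* in HPC-1 was at 55.0 and 107 CPM in intact PBS libraries, 32.4, 24.1 and 24.2 CPM in heterozygous PBS libraries and 32.8, 38.8 and 16.2 CPM in knockout PBS libraries. Under Ang II it was 87.0, 60.8 and 32.1 CPM in intact, 36.8, 32.8, 60.8 and 37.6 CPM in heterozygous and 30.0, 35.5, 51.0 and 19 CPM in knockout libraries. The intact libraries lay above the others under PBS and overlapped them under Ang II. How many of all genes did the same was not counted. The PBS differences on the log2 scale were −1.60 (SE 0.42; adjusted p = 0.966) for heterozygous minus intact and −1.48 (SE 0.42; adjusted p = 0.540) for knockout minus intact (edgeR quasi-likelihood F, Benjamini-Hochberg). With no filter beyond a total of 1 count the same differences were −1.58 (SE 0.32; adjusted p = 0.00454) and −1.45 (SE 0.32; adjusted p = 0.00691) in the same edgeR quasi-likelihood fit with Benjamini-Hochberg values, and both were called, beside 21 and 52 of all 27858 genes. The intact PBS libraries also differed in marker lists: the neutrophil genes summed to 6096 and 6923 CPM in them against at most 5270 CPM in the other PBS libraries, and the HPC-1 markers to 1455 and 1074 CPM against at least 1621 CPM. Their part in the result was not tested.

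*Ms4a2* in HPC-1 was at 5.50 and 8.40 CPM in intact PBS libraries and 9.87, 8.56 and 17.3 CPM in intact Ang II libraries. The heterozygous libraries were at 0, 0.325 and 2.64 CPM under PBS and 0.455, 0.456, 0 and 7.42 CPM under Ang II, and the knockout ones at 2.55, 2.15 and 1.32 CPM under PBS and 2.30, 0, 1.16 and 3.14 CPM under Ang II. All 5 intact libraries were thus above the knockouts of both agents, and 1 heterozygous library reached into their range. How many of all genes were set apart in this way was not counted. Under Ang II the log2 difference was −2.82 (SE 1.07; adjusted p = 0.954) for knockout minus intact and −2.37 (SE 1.05; adjusted p = 0.649) for heterozygous minus intact (edgeR quasi-likelihood F, Benjamini-Hochberg). The intestinal epithelial genes were also highest in the intact HPC-1 libraries, at 64.9 and 49.4 CPM under PBS and 74.2, 65.3 and 295 CPM under Ang II, and their part in the result was not tested.

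*Hdc* in HPC-1 was at 8.27, 2.28 and 14.4 CPM in heterozygous PBS libraries and 36.4, 22.8, 27.4 and 24.7 CPM in heterozygous Ang II libraries. In knockout libraries it was 8.91, 6.77 and 10.7 CPM under PBS and 19.3, 24.7, 15.9 and 17.5 CPM under Ang II. Ang II libraries lay above PBS libraries without overlap in both genotypes, whereas in intact mice the PBS libraries at 29.1 and 33.3 CPM lay above the Ang II libraries at 20.3, 27.6 and 4.76 CPM. Groups this small can separate by chance, and how many of all genes separated in this way was not counted. Ang II minus PBS on the log2 scale was 1.69 (SE 0.48) in heterozygous and 1.12 (SE 0.47) in knockout HPC-1, with an adjusted p of 1 for each (edgeR quasi-likelihood F, Benjamini-Hochberg). The monocyte list summed to 254 to 530 CPM under PBS and 584 to 932 CPM under Ang II in heterozygous HPC-1. In knockout HPC-1 it summed to 241 to 529 CPM and 435 to 776 CPM, which overlapped. *F13a1* was the list's most abundant gene in each of these Ang II libraries, and edgeR called no gene between the agents in either genotype. *Mpo* was at 2481 to 4709 CPM in heterozygous PBS and 4793 to 6059 CPM in heterozygous Ang II libraries. In knockouts it was at 2203 to 4335 CPM under PBS and 3358 to 6031 CPM under Ang II, which overlapped. The plasmacytoid dendritic cell list summed to 259 to 373 CPM in heterozygous PBS and 376 to 400 CPM in heterozygous Ang II libraries. In knockouts it summed to 264 to 383 CPM and 314 to 409 CPM. *Irf8* and *Tcf4* held most of this list's counts in each of these libraries, whereas *Siglech* had at most 11 and *Ly6d* at most 2. The part of the monocyte list, *Mpo* and the dendritic cell list in the result was not tested.

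*Mcpt8* in HPC-1 was at 3.15 and 7.0 CPM in intact, 3.97, 1.30 and 5.48 CPM in heterozygous and 2.23, 4.92 and 5.26 CPM in knockout PBS libraries. Under Ang II it was 3.89, 8.87 and 21.7 CPM in intact, 3.18, 2.28, 7.82 and 3.23 CPM in heterozygous and 9.22, 18.1, 9.27 and 2.55 CPM in knockout libraries. The genotypes overlapped under both agents. Whether genotype or Ang II effects differed between the gates was tested in 3 interaction comparisons, in which edgeR called 0 members, beside 0, 0 and 9 of 18013 genes. For Ang II against PBS (heterozygous and knockout), knockout against heterozygous (both agents), and knockout against intact under Ang II, 0, 4 and 2 members had an unadjusted p under 0.05, beside 511, 802 and 1776 genes. With the 3 libraries left out edgeR again called 0 members, beside 0, 0 and 17 of 17853 genes, and the unadjusted numbers were 1, 1 and 0, beside 331, 516 and 1786 genes. In the first 2 of these the knockout PBS LT-HSC group then holds 1 library; DESeq2 was not run for interactions.

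A list of 50 other granulocyte genes was examined in the same fit between the gates; some of them, such as *Ctsg*, *Ms4a3*, *Kit* and *Zfpm1*, are also genes of neutrophils, monocytes or earlier progenitors. Of these, 38 passed the filter, 11 were higher in HPC-1 and 8 higher in LT-HSC, beside the 18.4% and 17.9% of all genes given above, with a median log2 difference of −0.03, and without the 3 libraries the numbers were 13 and 8. The 6 with the largest absolute differences among those called were all higher in HPC-1. *Ctsg*, the primary granule protease cathepsin G, was at 0, 0 and 160 CPM as the lowest, median and highest of LT-HSC and at 96.3, 248 and 565 CPM in HPC-1. *Ms4a3*, a gene of granulocyte and monocyte progenitors next to *Ms4a2*, was at 0, 0.408 and 15.1 CPM in LT-HSC and 3.18, 18.2 and 53.9 CPM in HPC-1. *Siglecf*, a lectin of the eosinophil surface, was at 0, 1.11 and 12.1 CPM in LT-HSC and 6.46, 15.3 and 34.7 CPM in HPC-1. Their log2 differences, LT-HSC minus HPC-1, were −7.90 (SE 0.96), −4.60 (SE 0.70) and −3.91 (SE 0.53). The other 3 were the adaptor *Lat2* at −2.87 (SE 0.30), the IL-33 receptor *Il1rl1* at −2.56 (SE 0.38) and *Csf2rb*, the shared receptor chain for IL-3, IL-5 and GM-CSF, at −2.09 (SE 0.29) on the same scale. Those higher in LT-HSC included the transcription factors *Gata2* at 1.41 (SE 0.13) and *Gata1* at 1.23 (SE 0.23) and the monoamine transporter *Slc18a2* at 1.22 (SE 0.22), 3 genes picked after their values were seen. Some of the 50 genes had their highest level in the LT-HSC knockout Ang II replicate 2, among them *Ear2* at 158 CPM and *Ear1* at 68.9 CPM, ribonucleases of the eosinophil granule, and *Alox15* at 71.9 CPM and *Ccr3* at 15.5 CPM, all 4 picked likewise. The share of all genes that peaked in that library was not counted, so no trait of this list is read from it. *Siglecf* was highest in the HPC-1 heterozygous Ang II replicate 3.

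As a description over the 36 libraries, which share gate, depth and the 3 libraries that stand apart, the gene most like each member was found from Pearson's r of log2 CPM. For *Prg2* it was *Ear1* (r = 0.912 over 36 libraries, 0.797 without the 3) and for *Epx* it was *Ear2* (r = 0.879 and 0.770), followed by *Camp* and then *Ear1*. For *Prss34* it was *Wfdc21* (r = 0.825 and 0.545), followed by *Camp* and *Chil3*. *Camp* and *Chil3* are genes of maturing neutrophils. For *Hdc* it was *Ccr2* (r = 0.963 and 0.962), for *Cpa3* it was *Atp13a3* (r = 0.945 and 0.946) and for *Mcpt8* it was *Elane* (r = 0.923 and 0.924). *Ms4a2* was closest to *Scarb1* (r = 0.797), *Gzmb* to *Senp1* (r = 0.663) and *Fcer1a* to *Cyp4f18* (r = 0.640), and *Il5ra* had too few counts for this.

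Promoter sequences from RefSeq (GRCm38.p6) were matched for 9 of the 10 members, all but *Prg2*. The windows were the 250 bases before the start of the RefSeq entry; that of *Hdc* lay inside the gene bounds given above and that of *Mcpt8* partly inside them. In these windows the letters AGATAA, a form of the motif known for GATA factors, stood on either strand in 5 of 9 (*Cpa3*, *Ms4a2*, *Prss34*, *Fcer1a* and *Il5ra*), against 9.99% of 32851 such windows. TGATAA stood in 0 of 9 against 7.94%, and TATAAA in 3 of 9 (*Epx*, *Cpa3* and *Fcer1a*) against 12.4%. The motifs were picked after the values were seen, and a match is a description and not a binding site. The windows are shown for *Cpa3* (chr3:20242182-20242431, minus strand) and *Ms4a2* (chr19:11623720-11623969, minus strand), which were higher in HPC-1, and for *Prss34* (chr17:25298144-25298393, plus strand), which peaked in the LT-HSC knockout Ang II replicate 2. Each is written 5′ to 3′ along the gene, with AGATAA or its reverse complement TTATCT in capitals.
Cpa3: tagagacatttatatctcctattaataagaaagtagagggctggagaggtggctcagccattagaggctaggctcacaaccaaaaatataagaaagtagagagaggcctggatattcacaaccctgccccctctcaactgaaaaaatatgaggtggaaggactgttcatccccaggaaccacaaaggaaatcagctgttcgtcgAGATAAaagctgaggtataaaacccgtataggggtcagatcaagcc
Ms4a2: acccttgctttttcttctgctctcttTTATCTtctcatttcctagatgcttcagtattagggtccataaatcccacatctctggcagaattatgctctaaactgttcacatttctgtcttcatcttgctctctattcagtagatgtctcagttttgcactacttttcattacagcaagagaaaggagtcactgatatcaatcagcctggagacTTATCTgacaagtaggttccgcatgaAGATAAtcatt
Prss34: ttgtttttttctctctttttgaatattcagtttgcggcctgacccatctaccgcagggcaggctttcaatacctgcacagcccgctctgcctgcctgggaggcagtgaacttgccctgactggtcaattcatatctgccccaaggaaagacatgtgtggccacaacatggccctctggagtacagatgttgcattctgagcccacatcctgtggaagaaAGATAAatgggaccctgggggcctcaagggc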

How the data were processed

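RNA from 5000 sorted cells per sample was made into stranded total RNA libraries with the Pico Input SMARTer kit. The authors deposited 1 table of expected counts per gene from RSEM, which held whole numbers in all 36 libraries. The study's methods name STAR and RSEM, whereas the submitters' processing notes list Bowtie2, RSEM 1.2.31, mm10 and DESeq2; which aligner gave the table is not settled. Of 38887 genes, 37570 had a symbol, and they held 99.63% of counts. The labels give no sex, age or batch, and do not say whether libraries of different gates with the same number came from 1 mouse. HPC-1 samples are labelled ST-HSC.

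The members and lists were chosen with earlier results of these data known. All 10 members are named with their values; beyond them, the 6 genes with the largest absolute log2 fold change among called genes of a list of 50 other granulocyte genes, the genes most like each member with at least 100 counts, and the library with the highest summed level in each group are named. Genes outside this rule are marked as picked after their values were seen.

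Counts were analysed in R 4.3.3 with edgeR 4.0.16: filterByExpr, TMM, and a robust quasi-likelihood test in 1 model of 12 groups between the gates and 1 model of 6 groups within each gate. P-values were adjusted by Benjamini-Hochberg over all genes tested, with a threshold of 0.05. CPM are TMM-scaled. Likeness used log2 CPM with a prior count of 2. The test was checked on simulated counts. Marker lists covered LT-HSC, HPC-1, the gate of both, neutrophil, monocyte, erythroid, megakaryocyte, B cell, T and NK cell, plasmacytoid dendritic cell, intestinal epithelium and Y-linked genes. Alternatives were DESeq2 1.42.0 and its size factors, no filter beyond a total of 1 count, only the compared groups, the replicate number as a block, Y-linked expression as a covariate, each replicate left out in turn and, chosen after seeing the data, the fit without the 3 LT-HSC libraries that stand apart, also with no filter and with DESeq2. Means were also taken without the highest library of a gate. For HPC-1 knockout against heterozygous under PBS, deviations of the 3 same-numbered pairs from their group means correlated at 0.128 to 0.486. The Y-linked status was the same in all 3 pairs. The highest value was that of replicate 3, the only number without Y-linked counts in both groups. Whether the numbers pair these samples is not given by the labels, and the main test did not use them as pairs. Of each member's 31-base words, 0% were shared with another gene for *Epx*, *Prg2*, *Cpa3*, *Mcpt8*, *Prss34* and *Fcer1a*, 0.487% for *Hdc*, 1.35% for *Gzmb*, 4.03% for *Ms4a2* and 4.30% for *Il5ra*. *Cpa3* and *Mcpt8* each overlap a miRNA gene on the same strand.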

Additional observations from a re-analysis of the deposited data

Results flagged for a closer look

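In groups of 4 libraries, a library was picked out where its distance to the nearest of the others took most of the group's range, at the 95% limit of Dixon's ratio. Chance flags about 1 in 20 groups, but the genes were chosen with single high libraries known and the series share libraries, so the values are a description and no test; 32 series of a gene or the sum in a group were examined, 12 more at or under 3 counts were not, and 17 values were picked out.

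In the LT-HSC knockout Ang II group, replicate 2 stood far above the other 3 libraries for *Epx* at 144 CPM, *Prg2* at 285 CPM, *Cpa3* at 14.6 CPM, *Mcpt8* at 15.1 CPM, *Prss34* at 44.4 CPM, *Hdc* at 49.5 CPM, *Fcer1a* at 3.88 CPM and *Il5ra* at 3.88 CPM. Its sum over the 10 genes was 560 CPM, against at most 12.6 CPM in the others. In the LT-HSC heterozygous Ang II group, replicate 4 stood far above the other 3 for *Epx* at 8.22 CPM, *Prg2* at 19.9 CPM and the sum at 29 CPM, against at most 3.74 CPM for the sum in the others.

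In HPC-1, the heterozygous Ang II replicate 3 was set apart for *Cpa3* at 60.8 CPM, with 37.6 CPM in the next library. Replicate 4 of the same group was set apart for *Gzmb* at 2.74 CPM, *Ms4a2* at 7.42 CPM and *Il5ra* at 0.807 CPM (5 counts). The knockout Ang II replicate 2 was set apart for *Prg2* at 12.5 CPM, with 2.03 CPM in the next library. Groups of 3 or fewer libraries were not examined in this way, so the 2 knockout PBS libraries of LT-HSC that stand apart are not among these.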

How the results depend on the processing

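The count of 5 members called between the gates was 5 in each of 33 refits that left out 1 library (range 5 to 5), and the same 5 genes were called in all 42 settings run. In the other 15 comparisons the leave-one-out counts ranged from 0 to 0. Of 247 alternative counts, 236 did not move, taking a count of 6 for 5 as not moved. In 2 of the fits of only the groups compared, 0 members passed the filter, so their counts of 0 carry no information. Of the 11 others, 2 came from DESeq2 without the 3 LT-HSC libraries that stand apart, chosen after seeing the data: it called 1 member each for knockout and heterozygous against intact LT-HSC under Ang II. The other 9 came from the fit with no filter beyond a total of 1 count, which tests more genes: in LT-HSC it called 4 members for knockout against intact, 2 for heterozygous against intact and 5 for knockout against heterozygous under Ang II, 2 for knockout against heterozygous under PBS, and 1 each for Ang II against PBS in heterozygous and knockout mice. Of all 29655 genes it called 833, 496, 249, 193, 57 and 104 in this order. In HPC-1 it called 1 for heterozygous against intact under Ang II and 1 each for knockout and heterozygous against intact under PBS, beside 33, 52 and 21 of 27858 genes. With no filter and without the 3 libraries the LT-HSC counts were 0 in the 4 comparisons that do not use the knockout PBS group; the other 2 then have 1 library in that group, so their counts of 0 carry no information. The cause was not tested. Of 288 alternative log2 differences of the 7 members with a fitted fold, 1 reversed: *Fcer1a* was at 0.0128 without the heterozygous PBS replicate 2 of HPC-1 (adjusted p = 1, edgeR quasi-likelihood F, Benjamini-Hochberg; adjusted p over all settings 0.170 to 1), with a range of −0.808 to 0.0128 over 32 refits that left out 1 library. *Epx*, *Prg2* and *Prss34* are not among the 7; without the 3 LT-HSC libraries that stand apart, the log2 ratio of mean levels changed sign for *Epx* (2.23 to −1.10), *Prss34* (1.99 to −2.37) and *Il5ra* (0.51 to −2.14). The value for *Epx* was −0.05 with the HPC-1 intact Ang II replicate 3 also left out, that for *Prss34* was −4.96 with the LT-HSC heterozygous PBS replicate 3 also left out, and that for *Il5ra* rests on 2 LT-HSC counts, under the counting limit.

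With the replicate block the counts were 5 between the gates and 0 in the other comparisons. Between the gates the numbers did not pair all samples: 4 of 17 same-numbered libraries of LT-HSC and HPC-1 had opposite Y-linked status. Of 16 LT-HSC libraries compared, 10 correlated best with their own number. Whether the other same-numbered libraries came from 1 mouse was not settled. Within the gates, same-numbered heterozygous and knockout libraries of 1 agent shared Y-linked status, and only in HPC-1 under PBS did all 3 pairs correlate above 0.1; the block changed no call there. The levels of *Il5ra*, *Gzmb* and *Fcer1a* were mostly within a few counts of 0, and the part of sequencing depth in this was not tested. The intact LT-HSC libraries were among the shallowest, at 1980283, 2244419 and 2077699 counts.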

Other observations

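Other marker lists fixed with the members gave these summed levels as lowest, median and highest. In LT-HSC the megakaryocyte genes were at 99.8, 974 and 2128 CPM, the B cell genes at 6.96, 12.2 and 20.7 CPM, the plasmacytoid dendritic cell genes at 103, 161 and 394 CPM and the genes of the gate of both (*Kit*, *Ly6a* and *Ptprc*) at 939, 1132 and 1539 CPM. In HPC-1 the same lists were at 74.4, 99.9 and 165 CPM, 2.73, 14.1 and 20.6 CPM, 231, 350 and 418 CPM, and 786, 980 and 1497 CPM. Most counts of the plasmacytoid dendritic cell list were of *Irf8* and *Tcf4* in both gates. The lowest megakaryocyte value in LT-HSC was in the library labelled LT-HSC knockout PBS replicate 2. The monocyte genes were at 241, 529 and 932 CPM in HPC-1 and the erythroid genes at 14.2, 146 and 609 CPM. The LT-HSC heterozygous PBS replicate 2 had counts in 26187 genes, more than any other library.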
